A study of Mus musculus with 6 samples.

Results

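Troponin and tropomyosin genes encode the calcium switch of the cardiac and skeletal muscle thin filament. The genes described here were chosen by name: *Tnni1*, *Tnni2* and *Tnni3* for troponin I, *Tnnt1*, *Tnnt2* and *Tnnt3* for troponin T, *Tnnc1* for troponin C, and *Tpm1*, *Tpm2* and *Tpm3* for tropomyosin. All 10 were among the 20066 genes of the deposited RNA sequencing table. RNA came from cardiomyocytes (CMs) of newborn C57BL/6 mice (P0-1, the day of birth or the day after), taken from dissociated hearts and cultured for 96 h either with αKG (α-ketoglutarate in a form that enters cells, a metabolite of the Krebs cycle) at a labelled concentration of 100 µM, or with the solvent dimethylsulfoxide (DMSO). There were 3 libraries per group, all of the same genotype, age and time in treatment, so that the agent was the only labelled difference. The labels do not state whether the libraries of a group came from separate cultures or litters. In its section on immunofluorescence and histology, the study says that a neonatal CM sample stands for a single isolation from pooled hearts. Whether this covers the RNA libraries is not said there, and p-values measure only the spread between these libraries. The study used this experiment to ask whether αKG keeps CMs in a less mature state.

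Tropomyosin is a coiled coil that lies along actin and covers the sites to which myosin binds. Troponin T ties the troponin complex to tropomyosin, troponin I holds actin and myosin apart, and troponin C binds calcium and releases that block. Each family has several genes: the heart changes from the slow skeletal troponin I gene, *Tnni1*, to the cardiac gene, *Tnni3*, around and after birth, whereas cardiac troponin T (*Tnnt2*), troponin C of cardiac and slow muscle (*Tnnc1*) and α-tropomyosin (*Tpm1*) are used throughout.

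Values are normalized counts, that is, reads per gene divided by a size factor of the library and rounded to whole numbers. The depth was estimated at 3725428 to 4428655 reads in genes per library, since the steps between low values show what 1 read is worth. αKG replicate 3 stood apart: over all genes its log2 values correlated at 0.962 and 0.963 with the other αKG libraries and at 0.977 to 0.98 with the DMSO libraries, so the changes below are given with and without it. The CM label was checked on 12 markers, all of which were listed and had summed values of 76872 to 79583 in DMSO and 109653, 113293 and 81750 in αKG replicates 1 to 3 (the highest were *Ttn*, *Ryr2* and *Myh6*). *Ttn* alone made up 51569 to 54216 of this sum in DMSO and 80306, 84136 and 55569 in αKG, and the median log2 fold change of the 12 markers was 0.11 (0.15 without αKG replicate 3). Of 14 skeletal muscle markers 6 were listed (led by *Myh8*, *Mylpf* and *Myh1*), with sums of 81, 54 and 57 in DMSO and 125, 128 and 94 in αKG, and the myogenic factors *Myod1*, *Myog*, *Myf5* and *Myf6* were not among the listed genes. The table lists genes that reach a value of 2 in some library.

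The members lie partly side by side in the genome (GRCm38, from the deposited table). *Tnni1* (chromosome 1, 135779434 to 135810989) and *Tnnt2* (chromosome 1, 135836354 to 135852260) are both on the plus strand, 25.4 kb apart. *Tnnt1* (chromosome 7, 4504570 to 4516382) and *Tnni3* (chromosome 7, 4518305 to 4524229) are both on the minus strand with 1.92 kb between them. *Tnni2* (chromosome 7, 142441808 to 142444410) and *Tnnt3* (chromosome 7, 142498836 to 142516009) are both on the plus strand, 54.4 kb apart. The others stand alone: *Tnnc1* is on chromosome 14 (31208312 to 31211729, plus), *Tpm1* on chromosome 9 (67022590 to 67049406, minus), *Tpm2* on chromosome 4 (43514711 to 43523765, minus) and *Tpm3* on chromosome 3 (90072649 to 90100902, plus).

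Promoter sequence of 3 members is shown because *Tnni1* and *Tnnt1*, the slow skeletal troponin I and T genes, were the pair that was lower without αKG replicate 3, and because *Tnnt2*, the neighbour of *Tnni1*, was not. The sequences are those of RefSeq (GRCm38.p6), positions -230 to -31 from the first listed transcription start, 5′ to 3′ on the gene's strand, at chr1:135799191-135799390 (plus) for *Tnni1*, chr7:4516006-4516205 (minus) for *Tnnt1* and chr1:135836104-135836303 (plus) for *Tnnt2*. The *Tnnt2* window lies before the gene's span in the deposited table, whereas those of *Tnni1* and *Tnnt1* lie inside the span, since it opens farther upstream than the RefSeq start, and hold no exon base annotated for the gene. Capitals mark E-boxes (CANNTG, the letters that basic helix-loop-helix factors recognise) and, in *Tnnt2*, also 1 GATA motif (GATAA, here read on the other strand as TTATC).
Tnni1: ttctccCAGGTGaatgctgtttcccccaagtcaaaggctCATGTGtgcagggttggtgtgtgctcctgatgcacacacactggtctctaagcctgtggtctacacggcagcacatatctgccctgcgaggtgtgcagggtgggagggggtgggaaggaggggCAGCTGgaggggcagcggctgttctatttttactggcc
Tnnt1: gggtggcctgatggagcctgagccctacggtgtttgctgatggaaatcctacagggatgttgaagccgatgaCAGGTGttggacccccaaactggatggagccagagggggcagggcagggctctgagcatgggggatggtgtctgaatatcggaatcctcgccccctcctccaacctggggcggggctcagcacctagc
Tnnt2: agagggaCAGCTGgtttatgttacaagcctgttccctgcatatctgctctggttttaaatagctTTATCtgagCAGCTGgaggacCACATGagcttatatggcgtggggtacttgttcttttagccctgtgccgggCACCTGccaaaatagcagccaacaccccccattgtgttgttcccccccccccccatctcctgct
Of the 10 members, 8 had a promoter entry (all but *Tnni2* and *Tnnt3*). An E-box stood in the 200-base window of 7 of these 8, where 58.8% of 32851 mouse promoters held one. The MCAT element (CATTCC, the letters that TEAD factors recognise) was in 2 of 8, *Tpm1* and *Tnnc1*, against 10.5% of promoters. The GATA motif was in 1 of 8, against 18.8%, and the MEF2 site and the CArG box (the serum response factor site) were in 0 of 8, against 2.31% and 1.19%. These counts take the first listed start of each member. A further listed start of *Tpm3* also had a GATA motif in its window. All motifs were searched on both strands, and a match is a string of letters, not a bound site.

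**Figure D1:**
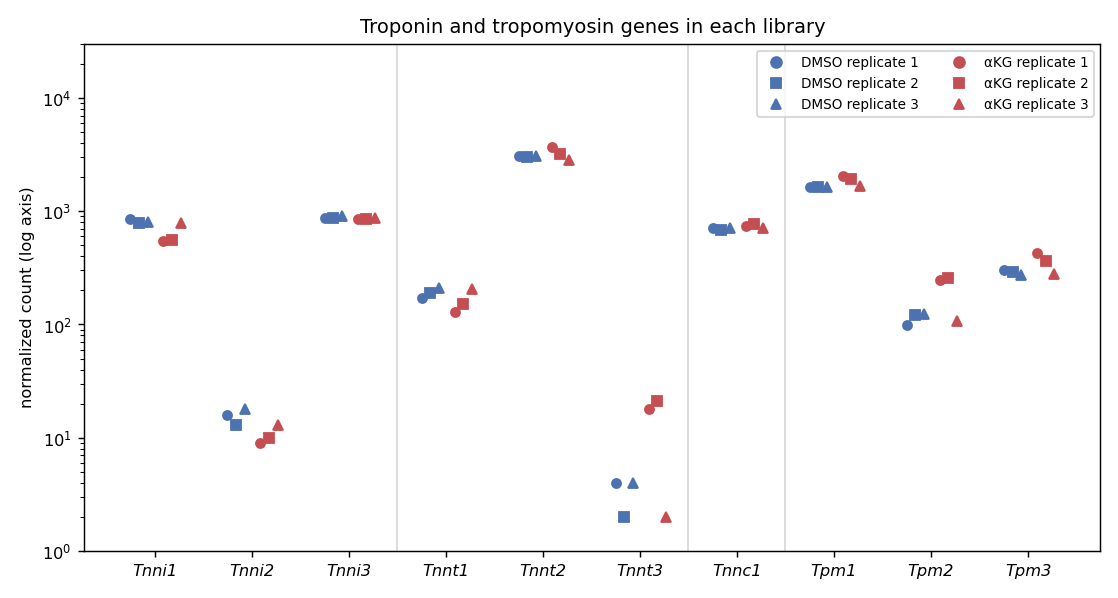
Normalized count (y axis, log scale) of the 10 genes (x axis) in each of 6 libraries; blue points are DMSO and red points αKG, with 1 symbol per replicate number, and grey lines part the troponin I, troponin T, troponin C and tropomyosin genes. αKG replicates 1 and 2 sit apart from the DMSO points for *Tnni1*, *Tnnt3* and *Tpm2*, whereas αKG replicate 3 (triangles) sits at or close to them.

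Over all 6 libraries, none of the 10 genes differed between αKG and DMSO at an adjusted p under 0.05 (limma on log2 values, Benjamini-Hochberg over all genes), a threshold that 3.78% of all genes passed. At an unadjusted p under 0.05 there were 3 of them, *Tnni1*, *Tpm1* and *Tpm2*, where 28.1% of all genes had such a p. The αKG libraries lay wholly above the DMSO libraries in 1 gene (*Tpm1*) and wholly below in 1 (*Tnni1*), which happened in 13.7% and 14.6% of all genes, and the groups overlapped in the other 8.
The picture differed between the αKG libraries. αKG replicates 1 and 2 lay together outside the DMSO range in all 10 genes, above it in 6 and below it in 4, and over all genes in 30.4% above and 27.4% below. αKG replicate 3 lay inside the DMSO range in 7 of 10, where 45.7% of all genes did. Without αKG replicate 3, 6 of the 10 passed the adjusted threshold. *Tpm1*, *Tpm2*, *Tpm3* and *Tnnt3* were the 4 that were higher in αKG, against 19.3% of all genes, and *Tnni1* and *Tnnt1* the 2 that were lower, against 17.9%. The median log2 fold change of the 10 was 0.07 beside 0.04 over all genes, and 0.14 beside 0.06 without that library. When αKG replicate 1 or 2 was left out instead, 0 of the 10 passed, but 0 of all genes passed either, so this is not particular to the 10. The log2 fold change of *Tnnt1* then went from -0.26 to -0.11 and that of *Tpm3* from 0.28 to 0.14 without αKG replicate 1, and that of *Tnnt3* from 1.35 to 0.84 without αKG replicate 2.

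**Figure D2:**
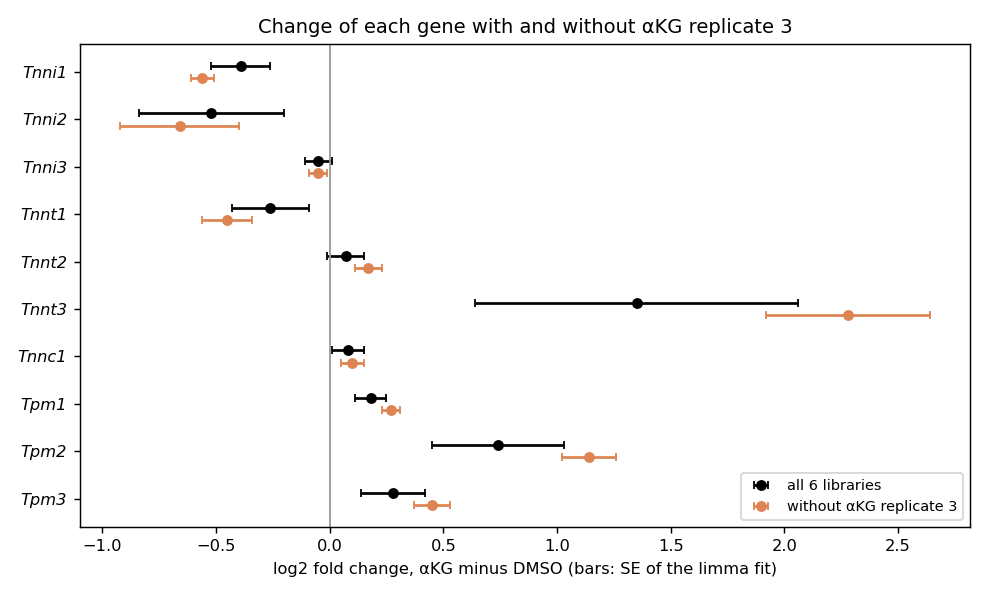
Log2 fold change of normalized counts (αKG minus DMSO, x axis) of each gene (y axis) from the limma fit, with all 6 libraries in black and without αKG replicate 3 in orange; bars are the standard error. Leaving out that library moved *Tnni1* from -0.39 to -0.56, *Tpm2* from 0.74 to 1.14 and *Tnnt3* from 1.35 to 2.28, and left *Tnni3* at -0.05.

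Troponin I, the inhibitory subunit, was taken first. *Tnni1*, the slow skeletal form that the fetal heart uses, had normalized counts of 858, 795 and 809 in the DMSO libraries and of 550, 562 and 788 after αKG. Every αKG library was lower than every DMSO library, but αKG replicate 3 was only just under the lowest of them. The mean was 821 ± 33.1 in DMSO and 633 ± 134 in αKG (SD of 3 libraries). The log2 fold change of -0.39 ± 0.13 (SE, 95% interval -0.68 to -0.11) missed the threshold (limma adjusted p = 0.0926). With that library left out *Tnni1* fell by 0.56 ± 0.05 on the log2 scale, to 0.678 of the DMSO level (limma adjusted p = 0.000916). Less RNA per cell and fewer cells that hold it cannot be told apart in such bulk samples.

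*Tnni3*, cardiac troponin I, the form of the mature heart, was nearly level. Its values were 876, 864 and 911 in DMSO and 847, 854 and 866 in αKG. The groups overlapped by a single pair of libraries, since αKG replicate 3 exceeded DMSO replicate 2. This gave a log2 fold change of -0.05 ± 0.06 with an interval of -0.18 to 0.09 (limma adjusted p = 0.639), and -0.05 ± 0.04 without αKG replicate 3 (limma adjusted p = 0.336). The paper names *Tnni3* among maturation genes whose expression was reduced in newborn CMs given αKG, citing figures that were not examined here. Of the exon bases of *Tnni3*, 86 are shared with the same-strand gene *Dnaaf3*. Reads that overlap 2 genes were not counted, so this stretch added nothing to either.

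*Tnni2*, fast skeletal troponin I, was scarce. It had normalized counts of 16, 13 and 18 in the DMSO libraries and of 9, 10 and 13 after αKG, with a tie at 13 between the groups. These stand for an estimated 8 to 19 reads per library, and the Poisson 95% intervals of the lowest and the highest (3.45 to 15.8 and 11.4 to 29.7 reads, counting error only) overlap. The log2 fold change of -0.52 ± 0.32 did not pass (limma adjusted p = 0.307), with or without αKG replicate 3 (-0.66 ± 0.26 without it, limma adjusted p = 0.0927).

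The ratio of *Tnni1* to *Tnni3* in the same library is a fetal-to-adult index from which the size factor cancels. The exon length (3.6 kb for *Tnni1*, 2.06 kb for *Tnni3*) does not cancel, so the ratio does not show how close the levels of these isoforms are. Per kb their means in DMSO were 228 and 428. In DMSO the ratio was 0.979, 0.92 and 0.888, and in αKG 0.649, 0.658 and 0.91. The first 2 αKG libraries were well below every DMSO library, and the third fell among them. The mean log2 ratio was lower by 0.35 in αKG (that is, -0.35), a difference that the exact two-sided permutation test did not separate from the spread (p = 0.2, adjusted p = 0.4 over 6 ratios, where 3 against 3 libraries cannot give less than 0.1). Without αKG replicate 3 it was -0.51, and αKG replicate 3 alone was at -0.03 from the DMSO mean. *Tnni2* to *Tnni3* was 0.0183, 0.015 and 0.0198 in DMSO against 0.0106, 0.0117 and 0.015 in αKG. αKG replicate 3 was just below DMSO replicate 2 here, and the log2 difference of -0.51 had the smallest p that the exact permutation test allows (p = 0.1, adjusted p = 0.4), and was -0.66 without αKG replicate 3.

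Troponin T, which joins the complex to tropomyosin, split by isoform. *Tnnt2*, the cardiac form, had 3064, 3038 and 3069 in DMSO and 3681, 3209 and 2812 in αKG. αKG replicates 1 and 2 were above and αKG replicate 3 below all DMSO libraries. The log2 fold change of 0.07 ± 0.08 did not pass (interval -0.12 to 0.26, limma adjusted p = 0.592) and was 0.17 ± 0.06 without αKG replicate 3 (limma adjusted p = 0.058).

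*Tnnt1*, slow skeletal troponin T, had normalized counts of 173, 190 and 208 in the DMSO libraries and of 128, 151 and 205 after αKG. Again the first 2 αKG libraries were below the DMSO range and the third within it. Its log2 fold change was -0.26 ± 0.17 over all libraries (limma adjusted p = 0.331). In the fit without αKG replicate 3 *Tnnt1* fell by 0.45 ± 0.11 (limma adjusted p = 0.0237), in the same direction as *Tnni1*, slow skeletal troponin I. *Tpm3* and *Tnnc1*, which slow muscle also uses, did not fall in that fit (0.45 ± 0.08 and 0.10 ± 0.05).

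*Tnnt3*, fast skeletal troponin T, went the other way. It had normalized counts of 4, 2 and 4 in the DMSO libraries and of 18, 21 and 2 after αKG. These are an estimated 17 and 19 reads in αKG replicates 1 and 2 (Poisson 95% intervals 9.9 to 27.2 and 11.4 to 29.7) and 2 to 4 reads in the other 4 libraries (upper bounds 7.22 and 10.2). Over all 6 libraries the log2 fold change was 1.35 ± 0.71 (limma adjusted p = 0.242), and without αKG replicate 3 *Tnnt3* rose by 2.28 ± 0.36 (limma adjusted p = 0.00515). The skeletal muscle markers were also higher in every αKG library than in any DMSO library by their sum (125, 128 and 94 against 81, 54 and 57). *Myh8* alone made up 87, 81 and 74 of this sum in αKG and 63, 28 and 30 in DMSO. In each of the other listed markers the groups overlapped. The part of these markers in the *Tnnt3* value was not tested. *Tnnt3* made up at most 2.68% of troponin T per length in any library. *Prr33*, on the opposite strand of this locus, shares 0 exon bases with *Tnnt3*. *Tnni2*, its neighbour on chromosome 7 and the fast skeletal troponin I, was not higher in these libraries, as given above.

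Relative to *Tnnt2* in the same library, *Tnnt1* was 0.0565, 0.0625 and 0.0678 in DMSO and 0.0348, 0.0471 and 0.0729 in αKG. The third αKG library had the highest ratio of all and the first αKG library the lowest. The log2 difference was -0.33 (exact permutation p = 0.4, adjusted p = 0.4) and -0.62 without αKG replicate 3, but only -0.08 without αKG replicate 1. *Tnnt3* to *Tnnt2* differed by 1.45 on the log2 scale (exact permutation p = 0.3, adjusted p = 0.4) by 2.45 without αKG replicate 3, and by 0.84 without αKG replicate 2.

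**Figure D3:**
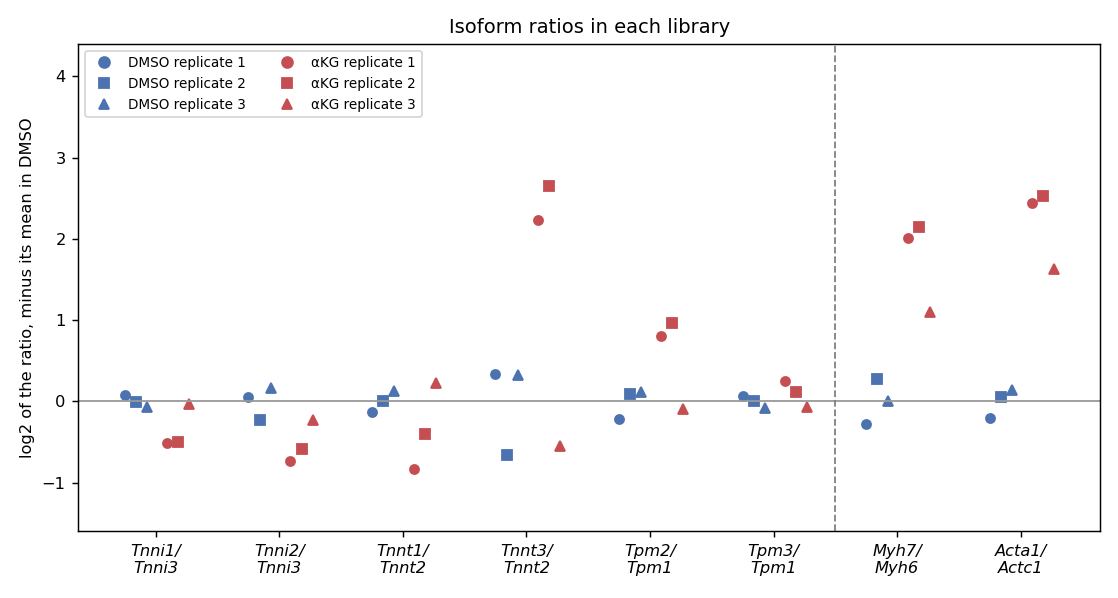
Log2 ratio of each gene pair (x axis) in each library, minus the mean of the 3 DMSO libraries (y axis); blue is DMSO, red is αKG, symbols are replicate numbers, and the dashed line parts the troponin and tropomyosin pairs from the myosin and actin pairs. *Tnni1* to *Tnni3* and *Tnnt1* to *Tnnt2* lie below 0 in αKG replicates 1 and 2 and at -0.03 and 0.23 in αKG replicate 3, whereas *Myh7* to *Myh6* and *Acta1* to *Actc1* are above every DMSO library in all 3.

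*Tnnc1*, troponin C of cardiac and slow muscle and the calcium sensor of the complex, had normalized counts of 715, 677 and 717 in the DMSO libraries and of 745, 765 and 713 after αKG. αKG replicates 1 and 2 were the highest and αKG replicate 3 lay in the DMSO range. Its log2 fold change was 0.08 ± 0.07 (interval -0.07 to 0.23, limma adjusted p = 0.477) and 0.10 ± 0.05 without αKG replicate 3 (limma adjusted p = 0.125). *Tnnc2*, the fast skeletal troponin C and not one of the 10, had 0 to 2 estimated reads per library, too few for a fold. *Nisch*, which overlaps *Tnnc1* on the opposite strand, shares 0 exon bases with it.

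Among the tropomyosins, which cover the myosin sites of actin, all 3 genes were above the DMSO range in αKG replicates 1 and 2. *Tpm1*, the main form of the heart muscle cell, had normalized counts of 1638, 1625 and 1651 in the DMSO libraries and of 2031, 1909 and 1664 after αKG. All αKG libraries exceeded all DMSO libraries, αKG replicate 3 by little. The log2 fold change of 0.18 ± 0.07 (interval 0.02 to 0.35) did not pass after adjustment (limma adjusted p = 0.145), and without αKG replicate 3 *Tpm1* rose by 0.27 ± 0.04 (limma adjusted p = 0.00361).

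*Tpm2*, β-tropomyosin, found in skeletal and smooth muscle and in the developing heart, had normalized counts of 98, 120 and 124 in the DMSO libraries and of 246, 258 and 108 after αKG. The first 2 αKG libraries were the highest by far and the third was within the DMSO range. The mean was 114 ± 14 in DMSO and 204 ± 83.4 in αKG (SD of 3 libraries). The log2 fold change of 0.74 ± 0.29 (interval 0.09 to 1.39) missed the threshold (limma adjusted p = 0.136). Without αKG replicate 3 *Tpm2* rose 2.21-fold (1.14 ± 0.12 on the log2 scale, limma adjusted p = 0.00136), the largest rise of the 10 after *Tnnt3* in that fit.

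*Tpm3*, the tropomyosin of slow muscle fibres and, as shorter forms, of the cytoskeleton of many cell types, had normalized counts of 305, 290 and 276 in the DMSO libraries and of 428, 367 and 280 after αKG. The third αKG library was again within the DMSO range. Its log2 fold change was 0.28 ± 0.14 (limma adjusted p = 0.222), and without αKG replicate 3 *Tpm3* rose by 0.45 ± 0.08 (limma adjusted p = 0.00887). *Tpm4*, a further tropomyosin that is mainly cytoskeletal, had 614, 642 and 635 against 764, 815 and 643, a difference of 0.23 ± 0.09 on the log2 scale (limma adjusted p = 0.148 with and 0.00427 without αKG replicate 3). *Tpm3-rs7*, a retrogene of *Tpm3*, had 1 to 3 normalized counts in every library.

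In the same library, *Tpm2* stood to *Tpm1* as 0.0598, 0.0738 and 0.0751 in DMSO and 0.121, 0.135 and 0.0649 in αKG. The difference of 0.56 on the log2 scale did not pass (exact permutation p = 0.3, adjusted p = 0.4) and was 0.89 without αKG replicate 3. *Tpm3* to *Tpm1* differed by 0.10 (exact permutation p = 0.4, adjusted p = 0.4) and by 0.18 without it.

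For the make-up of each family, levels were compared per kilobase of exon. In DMSO *Tnni3* held 63 to 65.1% of troponin I, *Tnni1* 33.1 to 35.4% and *Tnni2* the rest. In αKG *Tnni1* was at 26.8, 27.1 and 33.8%. The order of *Tnni3* before *Tnni1* before *Tnni2* held in all 6 libraries, at 428 ± 11.8, 228 ± 9.19 and 10.5 ± 1.68 normalized counts per kb in DMSO (mean and SD, n = 3).

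*Tnnt2* led troponin T with 80.3 to 83% in DMSO, and *Tnnt1* followed with 16.5 to 19.2%, then 10.7, 13.8 and 20.4% in αKG. *Tpm1* led the 3 tropomyosins with 73.8 to 75.1% in DMSO and 66.9, 66.4 and 75.5% in αKG. *Tpm2* and *Tpm3* were close in DMSO, at 39.2 ± 4.81 and 47.7 ± 2.38 normalized counts per kb, and changed places in αKG replicates 1 and 2, where *Tpm2* had 18.1 and 20% and *Tpm3* 15 and 13.6%. Both the closeness in DMSO and this crossing depend on the exon length used. With the shorter set of basic transcripts, *Tpm2* and *Tpm3* had 47.9 ± 5.88 and 87.4 ± 4.36 normalized counts per kb in DMSO. In αKG replicates 1 and 2 *Tpm2* then had 15.7 and 17.5% and *Tpm3* 19.6 and 17.9%. The share of *Tnnt1* in DMSO depends on the exon length too, at 17.9 ± 1.34% over all annotated exons and 6.79 ± 0.576% over basic transcripts, since the annotation of *Tnnt2* shortens from 7.75 to 1.26 kb. That of *Tnni1* was 34.2 ± 1.13% and 39.5 ± 1.2%, in the same order. The same gene's change between libraries does not depend on the length.

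**Figure D4:**
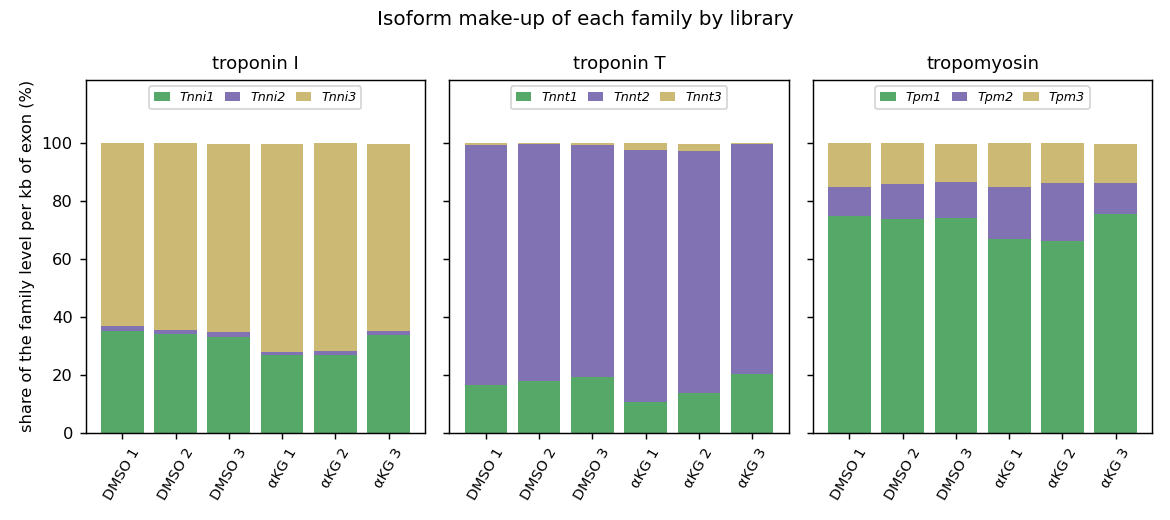
Share of each gene in the summed level per kb of exon of its family (y axis, percent) in each library (x axis), with 1 panel each for troponin I, troponin T and tropomyosin. The *Tnni1* share is 26.8 and 27.1% in αKG replicates 1 and 2 and 33.1 to 35.4% in the other libraries, and the *Tpm2* share is 18.1 and 20% against 10 to 12.4%.

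Summed over each family, normalized counts of troponin I were 1750, 1672 and 1738 in DMSO and 1406, 1426 and 1667 in αKG. The troponin T sum was 3241, 3230 and 3281 in DMSO and 3827, 3381 and 3019 in αKG, so that αKG libraries lay on both sides of the DMSO range. Troponin C, with its single gene *Tnnc1*, had 703 ± 22.5 and 741 ± 26.2 (SD, n = 3 each). The tropomyosin sum was 2041, 2035 and 2051 in DMSO and 2705, 2534 and 2052 in αKG. Troponin I was thus lower and tropomyosin higher in every αKG library than in any DMSO library, though αKG replicate 3 was beyond the nearest DMSO library only by 1667 against 1672 and by 2052 against 2051. Among single genes, 14.6% were wholly lower and 13.7% wholly higher. The sums are not corrected for length and contain *Tnni1* and *Tpm1*, the members whose groups did not overlap, so they are no separate result.

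Isoform pairs of the myosin and actin families were set beside these. The ratio of *Myh7* to *Myh6*, the β and α myosin heavy chains, was 0.0886, 0.131 and 0.108 in DMSO and 0.434, 0.479 and 0.231 in αKG. *Acta1* to *Actc1*, skeletal and cardiac α-actin, was 0.0509, 0.0608 and 0.0644 in DMSO and 0.318, 0.337 and 0.181 in αKG. Both ratios lay above the DMSO range in each of the 3 αKG libraries, by 1.75 and 2.20 on the log2 scale (exact permutation p = 0.1 each, the smallest possible), and by 2.08 and 2.49 without αKG replicate 3, which was itself at 1.10 and 1.64. In these pairs the isoform known from the fetal mouse heart was higher, while *Tnni1* to *Tnni3* had a log2 difference of -0.35. Whether the pairs differ in their change was not tested.

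The rest of the thin filament was read from a list of 22 genes (actins, *Tpm4*, tropomodulins, leiomodins, nebulin relatives, capping and assembly proteins), all of them in the table. There 3 genes rose, 0 fell and 19 did not pass (3.78% of all genes passed), with a median log2 fold change of 0.07 beside 0.04 over all genes. The counts without αKG replicate 3 were 6 higher and 7 lower (19.3% and 17.9% of all genes), with a median of 0.06, as over all genes. *Acta1*, skeletal α-actin, had normalized counts of 68, 78 and 84 in the DMSO libraries and of 429, 481 and 239 after αKG (2.25 ± 0.23 on the log2 scale, limma adjusted p = 0.00335, and 2.56 ± 0.11 without αKG replicate 3).
*Xirp2*, an actin-binding repeat protein, had 1243, 1798 and 1617 against 5817, 6504 and 3182 (1.69 ± 0.23, limma adjusted p = 0.0111, and 2.0 ± 0.15 without αKG replicate 3). *Nrap*, which takes part in building myofibrils, had 1722, 1701 and 1693 against 2434, 2475 and 2124 (0.46 ± 0.07, limma adjusted p = 0.0136, and 0.53 ± 0.03 without αKG replicate 3). In these 3 genes αKG replicate 3 was above every DMSO library. They were named because they passed with that library included, which favours such genes, so they are not set against the troponin and tropomyosin genes here. When replicate 1 or 2 of αKG, or replicate 2 or 3 of DMSO, was left out, 0 of the 3 passed. Of all genes 0, 0, 3 and 4 passed in these fits. Only *Acta1* passed without DMSO replicate 1 (limma adjusted p = 0.0276), where 152 of all genes did. Over all fits with a library left out, the log2 fold changes were 2.05 to 2.56 (*Acta1*), 1.49 to 2.0 (*Xirp2*) and 0.41 to 0.53 (*Nrap*). *Actc1*, the actin along which these proteins lie in the heart, had 1335, 1283 and 1305 against 1350, 1428 and 1317 (0.06 ± 0.06, limma adjusted p = 0.513, and 0.09 ± 0.04 without αKG replicate 3).

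**Figure D5:**
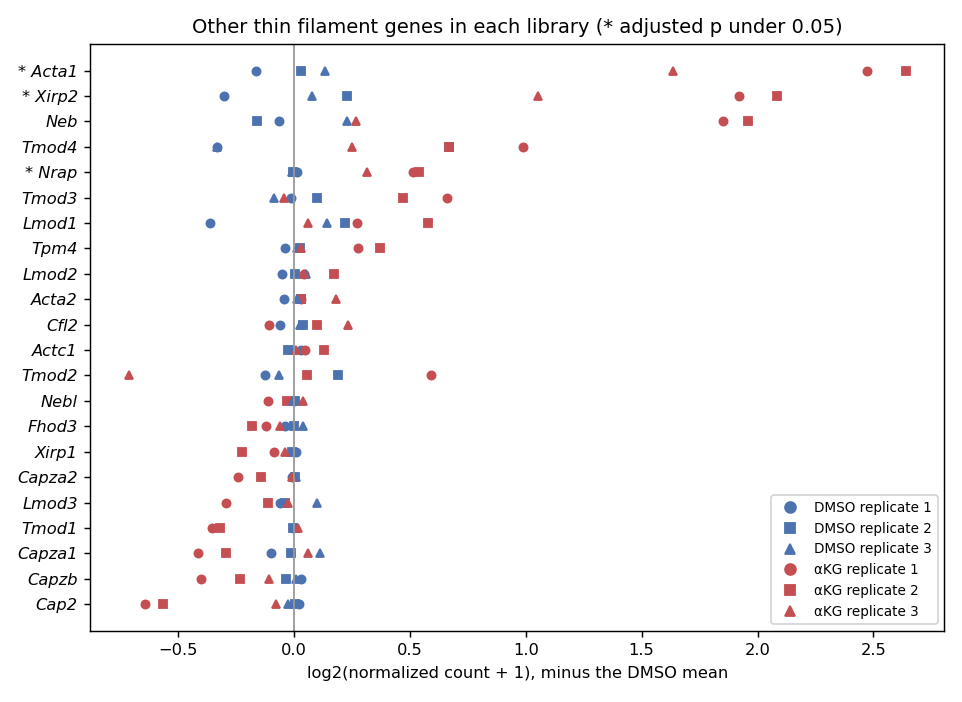
Log2(normalized count + 1) of 22 further thin filament genes (y axis) in each library, minus the DMSO mean (x axis); blue is DMSO, red is αKG, symbols are replicate numbers, and an asterisk marks an adjusted p under 0.05 in the limma fit over all 6 libraries. *Acta1*, *Xirp2* and *Nrap* carry the asterisk, and in each of them all 3 αKG points lie to the right of the DMSO points.

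Of 22 transcription and splicing factors known to act on muscle contractile genes or their exons, also all listed, 1 rose, 1 fell and 20 did not pass (3.78% of all genes passed), with a median log2 fold change of -0.10. *Celf2*, a splicing factor of a family that acts on exons of *Tnnt2*, had normalized counts of 652, 683 and 688 in the DMSO libraries and of 1108, 1151 and 895 after αKG (0.63 ± 0.09, limma adjusted p = 0.0159, and 0.74 ± 0.04 without αKG replicate 3). With GC and length correction its log2 fold change was 0.27 ± 0.07 (limma adjusted p = 0.0487, and 0.0539 with the replicate number as a block). *Thrb*, a thyroid hormone receptor, had 266, 269 and 268 against 163, 183 and 205 (-0.55 ± 0.11, limma adjusted p = 0.036, and -0.63 ± 0.07 without αKG replicate 3). The groups did not overlap in either gene, but 0 factors passed when any 1 library other than αKG replicate 3 was left out. Of all genes, 0 to 152 passed in these fits. When αKG replicate 3 was left out, 3 factors were higher and 11 lower (19.3% and 17.9% of all genes), with a median of -0.14. Values per gene do not show which exons were used, so a change of splice form within *Tnnt2* or the tropomyosins was not analysed here.

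Tropomyosin genes are also expressed by cells other than CMs, so markers of such cells were read beside them. Fibroblast markers (12 of 12 listed, led by *Fn1*, *Col1a1* and *Vim*) summed to 6939 to 7226 in DMSO and to 12543, 12227 and 6677 in αKG. Epicardial markers (10 of 10, led by *Tbx18*, *Upk1b* and *Upk3b*) summed to 492 to 516 and to 1318, 1269 and 464. These sums were high in the same 2 αKG libraries in which *Tpm2*, *Tpm3* and *Tnnt3* were high. So was the sum of the CM markers (109653 and 113293, against 81750 in αKG replicate 3). Of all genes, 30.4% were above every DMSO library in both αKG replicates 1 and 2.
Smooth muscle and mural markers (12 of 12, led by *Des*, *Cspg4* and *Acta2*) summed to 4520 to 4653 and to 6342, 5802 and 5099. *Des* alone made up 1410, 1377 and 1405 of this sum in DMSO and 1723, 1743 and 1464 in αKG. The αKG libraries lay wholly above DMSO in *Des*, *Cspg4*, *Cnn1* and *Mcam*. The groups overlapped in *Acta2*, *Smtn*, *Tagln*, *Pdgfrb*, *Myh11*, *Lmod1*, *Notch3* and *Rgs5*. The 12 endothelial markers (led by *Flt1*, *Cdh5* and *Kdr*) summed to 2291 to 2413 and to 1725, 1581 and 1584. *Flt1* did not follow its list, with 485, 510 and 499 in DMSO and 733, 719 and 411 in αKG. Of 12 macrophage markers 5 were listed (led by *Mrc1*, *Cd68* and *Lyz2*), with sums of 23 to 41 over all libraries. Of these lists, 8 endothelial genes were lower and 2 mural genes higher at an adjusted p under 0.05 over all libraries (limma), and 0 of the fibroblast, epicardial, CM, skeletal muscle or macrophage genes passed. Without αKG replicate 3, 10 of 12 fibroblast, 10 of 10 epicardial, 6 mural, 6 CM, 2 skeletal muscle and 2 endothelial markers were higher at that threshold. In that fit 8 endothelial and 2 CM markers were lower and 0 macrophage markers passed. Of all genes, 3.78% passed over all libraries, and without αKG replicate 3 19.3% were higher and 17.9% lower. The part of other cell types in the tropomyosin and troponin T values was not tested.

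The genes whose log2 values followed those of *Tnni1* most closely over the 6 libraries, among 8287 genes with a mean of at least 100, were *Zdhhc5* (Pearson r = 0.9999), *Anxa6* (0.999) and *Ppp2r1a* (0.9986). *Zdhhc5* had normalized counts of 1108, 1072 and 1080 in the DMSO libraries and of 921, 930 and 1067 after αKG. For *Tnni3* they were *Nagk* (0.9896), *Nfu1* (0.9854) and *Scly* (0.9813). With 6 points per gene and 8287 genes to choose from, these describe the shape over the libraries and carry no test.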

How the data were processed

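RNA of 6 samples was made into libraries with a stranded total RNA kit (SMARTer). As the study's RNA-seq methods and the submitters' processing notes have it, the authors ran Trimmomatic 0.39 on the reads, STAR 2.7.10a against mm10 (GRCm38.p5) and featureCounts 2.0.3, admitting exonic reads of a single gene and a single place, and DESeq2 1.30.1. Picard 2.27.1 is listed with no role given. The unit of the deposited values is called a score, because the authors divided read numbers by a size factor and rounded, so they are not raw counts and no count model was run on them. The strand setting of the counting is not given in the sources used here. The labels' concentration was used, and the study's methods give another.

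Values were tested with limma 3.58.1 (R 4.3.3, variance trend, log2(value + 1), which understates changes of low genes) over all 20066 genes and all 6 libraries, with treatment as the only term. Adjusted p-values are Benjamini-Hochberg values over all genes, two-sided, called under 0.05. Ratios were compared with exact two-sided permutation tests. The fits were tested on simulated data. Depth was estimated as values divided by the worth of 1 read, read from the spacing of low values (0.9259 to 1.1188). Poisson intervals cover counting error only, as PCR copies of a molecule could not be told from separate molecules. Positions were those of the table, 99% of them identical in GENCODE M21, which gave exon lengths. Where several genes carried 1 symbol (9 symbols), the one of higher mean was used.

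The members, gene lists and tests were chosen with earlier results of these data known. Named were the members, the genes of the ratios, up to 3 called genes with the smallest p of each pathway list, of each marker list the 3 with the highest mean, and the 3 genes most like *Tnni1* and *Tnni3*. *Tpm4*, *Tnnc2* and *Tpm3-rs7* were added as further family members. Alternatives were pseudocount, filter, variance model, scaling, GC and length, a replicate block, voom weights, averaging DMSO replicates 2 and 3, and each library left out.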

Additional observations from a re-analysis of the deposited data

How the results depend on the processing

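The count of troponin and tropomyosin genes called, 0 of 10, did not change under most alternatives. It was 1 (*Tnni1*, adjusted p = 0.0494) with GC and length correction together with a replicate block, an alternative chosen after seeing the data, 3 without adjustment of p, and 0 to 6 when 1 library was left out, 6 being the count without αKG replicate 3. Of 169 member values under alternatives, 160 kept direction and side of the threshold, 7 gained a call, and 2 reversed: *Tnnt2* (0.07, and 0.17 without αKG replicate 3) was at -0.06 with quantile normalization and at -0.03 without αKG replicate 1. Among non-members *Myh6* reversed to -0.10 with quantile normalization. The log2 ratio of *Tnni2* to *Tnni3* was -0.90 with quantile normalization, and the other ratios moved by less than 1 SD (of log2 ratios, pooled over both groups and including αKG replicate 3). For fits with 1 library left out this limit tells nothing, since leaving out 1 of 3 libraries cannot move a group mean that far. In those fits *Tnnt3* to *Tnnt2* ranged from 0.84 to 2.45 (1.45 with all libraries). *Tnnt1* to *Tnnt2* ranged from -0.62 to -0.08 (-0.33 with all libraries).

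Over all genes the 759 calls became 346 with a pseudocount of 0.1, 27 without the variance trend, 1239 with GC and length correction, 46 with the replicate block, 1700 with both of these, 10 with DMSO replicates 2 and 3 averaged, 362 with voom, 5648 unadjusted, and 0 to 7466 with 1 library left out (0 without αKG replicate 1 or 2, 3 without DMSO replicate 2, 4 without DMSO replicate 3, 152 without DMSO replicate 1). For thin filament partners, 3 calls became 0 without the trend or with averaging, 1 with the replicate block, 6 with GC and length correction and the block, and 0 to 13 with 1 library left out. For the regulators, 2 became 0 without the trend, with the block or with averaging, 5 with GC and length correction with or without the block, and 0 to 14 with 1 library left out. The causes were not tested. Of 322 values of members and further genes of the ratios and pathway lists, 47 lost a call.

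Libraries with the same number share only that number: their deviations from the group means correlated at -0.035, 0.057 and 0.017, and the block moved the calls from 759 to 46. *Tnni2* and *Tnnt3* had normalized counts of 2 to 21 per library, and the smallest change that could be called in such genes was not measured.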
